A study of Mus musculus with 6 samples.

Results

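The genes described here are the 5 thrombospondins of the mouse (Thbs1, Thbs2, Thbs3, Thbs4 and Comp, the gene of the fifth thrombospondin, cartilage oligomeric matrix protein) and 3 tendon genes (Tnmd, Scx and Mkx). They were chosen by gene symbol, each by its brightest probe over the 6 arrays, and make up 8 of the 19321 genes with a named probe. Each of the 8 had a single probe. RNA was measured on 6 one-colour microarrays, each hybridised with Cy5-labelled RNA from freshly sorted hind limb cells of C57BL/6 mice for which the labels name no transgene or treatment. The PDGFRa+ population holds the mesenchymal progenitors of muscle, which lie between the fibres. Satellite cells serve as muscle stem cells, and the CD31_CD45 population mixes endothelial with hematopoietic cells. Each population was taken at 2 ages, aged (24 to 28 months) and young (8 to 10 weeks), so that there is 1 array per population and age and no replicate within either. The series compared populations and ages. Cells of repeated sorts were pooled before RNA was extracted and amplified, so an array stands for a pool of animals.

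Thrombospondins are secreted calcium-binding glycoproteins of the extracellular matrix. Thrombospondin-1 and -2 are trimers that inhibit the growth of blood vessels, bind CD36 and CD47 and carry the properdin-like repeats, whereas thrombospondin-3, -4 and Comp are pentamers without these repeats. Thbs4 and Comp are abundant in tendon, where Comp binds collagen fibres, and in Drosophila and zebrafish thrombospondins are needed for the attachment of muscle to tendon. Scx (scleraxis, a basic helix-loop-helix factor) and Mkx (Mohawk, a homeobox factor) are transcription factors of tendon cells, and Tnmd (tenomodulin) is a transmembrane glycoprotein of mature tendon cells.

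The upstream sequences of the 4 members found in the promoter table are printed, so that their starts can be set side by side. Each is the 250 bases before the annotated start, 5′ to 3′ on the strand of the gene, from RefSeq on GRCm38.p6. Capitals mark an E-box (CANNTG), a TATA box (TATAAA) or a GC box (GGGCGG), searched on both strands. The windows are chr17:14694263-14694512 (minus strand) for Thbs2, chr3:89214930-89215179 (plus strand) for Thbs3, chr13:92794819-92795068 (minus strand) for Thbs4 and chrX:133850758-133851007 (plus strand) for Tnmd.
Thbs2: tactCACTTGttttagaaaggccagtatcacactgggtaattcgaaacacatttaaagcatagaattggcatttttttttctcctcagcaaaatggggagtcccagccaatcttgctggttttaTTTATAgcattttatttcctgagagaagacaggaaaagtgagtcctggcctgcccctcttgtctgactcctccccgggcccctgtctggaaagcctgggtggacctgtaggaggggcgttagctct
Thbs3: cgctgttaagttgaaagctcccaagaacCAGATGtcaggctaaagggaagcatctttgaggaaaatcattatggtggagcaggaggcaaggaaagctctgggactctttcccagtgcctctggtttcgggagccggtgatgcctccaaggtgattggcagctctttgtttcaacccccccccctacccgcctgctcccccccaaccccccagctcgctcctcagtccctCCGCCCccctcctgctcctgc
Thbs4: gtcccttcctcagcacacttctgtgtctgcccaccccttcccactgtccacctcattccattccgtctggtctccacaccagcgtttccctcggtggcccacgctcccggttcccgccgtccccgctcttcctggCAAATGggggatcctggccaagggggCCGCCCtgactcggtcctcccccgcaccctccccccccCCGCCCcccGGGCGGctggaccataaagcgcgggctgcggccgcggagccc
Tnmd: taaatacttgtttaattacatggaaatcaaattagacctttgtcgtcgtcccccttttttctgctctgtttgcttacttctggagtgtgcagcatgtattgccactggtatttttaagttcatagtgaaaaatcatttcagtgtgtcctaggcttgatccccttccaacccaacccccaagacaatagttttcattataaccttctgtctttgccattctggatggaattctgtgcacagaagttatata
The 4 windows differed in base composition, with a GC content of 46.8% at Thbs2, 58.8% at Thbs3, 70.8% at Thbs4 and 38.4% at Tnmd, against a median of 52.4% over 32536 distinct promoters. Thbs4 held 3 GC boxes and an E-box, Thbs3 held an E-box and a GC box, and Thbs2 held an E-box and a TATA box on the minus strand. No match lay in the window of Tnmd. The E-box of Thbs3, whose first base lies 222 bases before the start, has the letters CAGATG, a form that scleraxis is known to bind. An E-box was found in 66.2% of the promoters, the letters CAGATG in 14.4%, the GC box in 33.0% and the TATA box in 12.3%, so each of these matches is common. The 250 bases do not reach enhancers, and these letters were not tested for use in any cell.

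Signals are given first in the deposited intensity units, which are linear and scaled to a median of 25 on each array. Differences and tests are on a log2 scale computed from the scanner files with an offset of 50, which understates the differences of dim genes. Of 23473 probes, 88.4% to 92.3% per array were above background, and all 8 members were above it on all 6 arrays. Levels of different probes are not set against each other. Markers used to check each sort were brightest in its own population, though markers of other cells, given with the ages below, were seen too. Pdgfra read 4149 and 5700.4 in aged and young PDGFRa+ cells, with 60.6 the highest of the other 4 arrays, and Pax7 read 1361.6 and 1055 in aged and young satellite cells, with 10.6 the highest elsewhere. Pecam1 (CD31) and Ptprc (CD45) were brightest on both CD31_CD45 arrays. Populations were compared with limma on all 6 arrays with age as a term, with Benjamini-Hochberg adjustment over 18372 genes. Calls needed both an adjusted p below 0.05 and a difference of 2-fold or more. The model has 2 residual degrees of freedom, and its p-values rest on the spread of these 6 arrays. In RNA from sorted pools, fewer cells of a type and less RNA per cell cannot be told apart.

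Transcripts of the thrombospondins and tenomodulin were higher in PDGFRa+ than in satellite cells. Of the 8 members 6 rose and none fell, where 4.09% of all genes tested rose, 3.2% fell and 7.29% were called in either direction. Their median log2 difference was 2.15, against -0.01 over all genes. The 6 were the 5 thrombospondins and Tnmd, and the values of the transcription factors Scx and Mkx did not pass. Against CD31_CD45 cells 7 of 8 rose and none fell (4.7% of all genes rose, 5.4% fell and 10.1% were called either way), with a median of 3.99 against 0.01 over all genes. The exception was Scx.

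**Figure D1:**
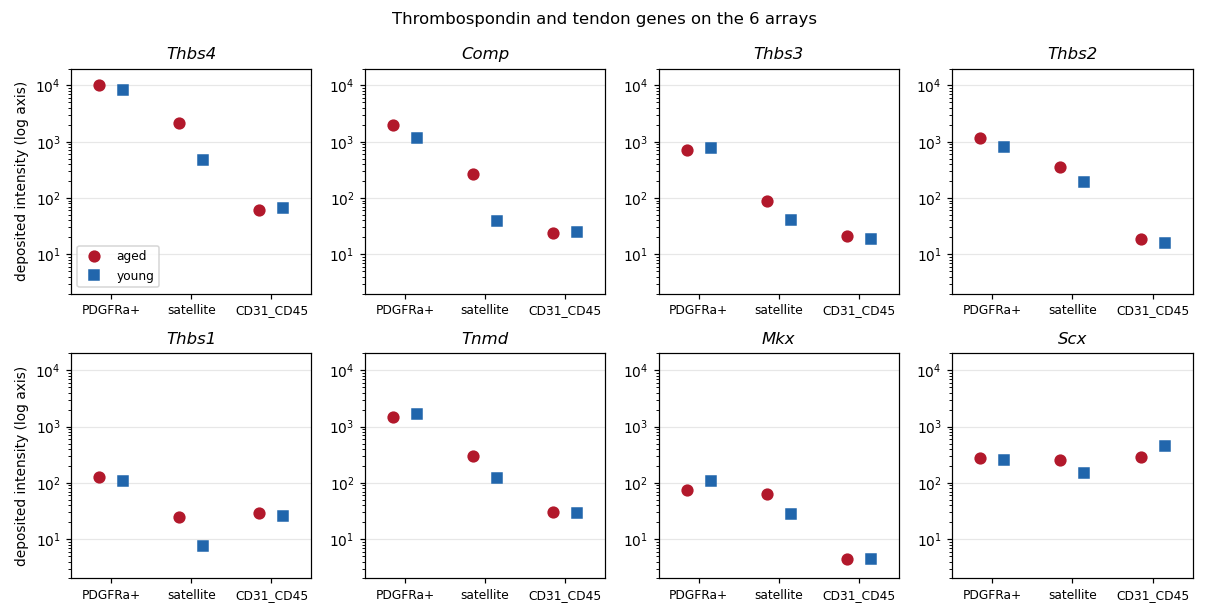
Deposited intensity (log axis) of each of the 8 members on the 6 arrays, 1 point per array, with aged beside young in each population. Thbs1, Thbs2, Thbs3, Thbs4, Comp, Tnmd and Mkx are brightest in PDGFRa+ cells at both ages, and Scx is not.

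Thbs4, the matrix thrombospondin of tendon and muscle attachments, read 10224.9 and 8433.3 in aged and young PDGFRa+ cells, 2186.4 and 473.0 in aged and young satellite cells and 62.2 and 66.4 in aged and young CD31_CD45 cells. The order was PDGFRa+, satellite, CD31_CD45 at both ages. Thbs4 rose by 6.70 (log2, SE 0.62, adjusted p = 0.00842) in PDGFRa+ over CD31_CD45 cells, the 13th largest difference of either sign among the 18372 genes. It rose by 3.26 over satellite cells (SE 0.62, adjusted p = 0.0416), and by 3.45 in satellite over CD31_CD45 cells (SE 0.62, adjusted p = 0.0276). Comp, the pentameric thrombospondin of cartilage and tendon, read 2004.3 and 1186.3 in aged and young PDGFRa+ cells, 270.6 and 38.5 in aged and young satellite cells and 23.7 and 24.4 in aged and young CD31_CD45 cells. Its order was the same, but the young satellite array was close to the CD31_CD45 arrays. Comp rose by 3.28 in PDGFRa+ over satellite cells (SE 0.59, adjusted p = 0.0366) and by 4.68 over CD31_CD45 cells (SE 0.59, adjusted p = 0.0152). The second call was lost with the scanner set, described with the ages below, as a block (6.40). Between satellite and CD31_CD45 cells the difference of 1.40 (95% interval -0.32 to 3.12, adjusted p = 0.165) did not pass.

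Thbs3, a pentameric thrombospondin expressed in the developing skeleton, had the narrowest spread between ages of these 3 pentamers in PDGFRa+ cells. It read 700.8 and 779.5 in aged and young PDGFRa+ cells, 86.7 and 41.1 in aged and young satellite cells and 20.8 and 18.8 in aged and young CD31_CD45 cells. Thbs3 rose by 2.94 over satellite cells (SE 0.22, adjusted p = 0.00929) and by 3.78 over CD31_CD45 cells (SE 0.22, adjusted p = 0.00377), while satellite and CD31_CD45 cells differed by 0.84 (adjusted p = 0.0633). The reference annotation places a long noncoding RNA over part of Thbs3 and another over part of Comp, and the strand of the probes is not given in the sources used here. Signals of the overlapping transcripts cannot be told apart.

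The trimeric thrombospondins differed from each other in where they came next. Thbs2, an inhibitor of angiogenesis that also shapes collagen fibrils, read 1156.4 and 791.3 in aged and young PDGFRa+ cells, 361.4 and 191.4 in aged and young satellite cells and 18.7 and 15.6 in aged and young CD31_CD45 cells. All 3 comparisons passed. Thbs2 rose by 1.63 in PDGFRa+ over satellite cells (SE 0.23, adjusted p = 0.0232), by 4.20 over CD31_CD45 cells (SE 0.23, adjusted p = 0.00339), and by 2.57 in satellite over CD31_CD45 cells (SE 0.23, adjusted p = 0.00677). Thbs1, which activates latent TGF-beta and is also a platelet protein, read 128.9 and 107.1 in aged and young PDGFRa+ cells, 25.2 and 7.4 in aged and young satellite cells and 29.2 and 25.9 in aged and young CD31_CD45 cells. Here CD31_CD45 cells stood above satellite cells, by a margin that did not pass (satellite minus CD31_CD45 -0.30, 95% interval -0.68 to 0.08, adjusted p = 0.176). Thbs1 rose in PDGFRa+ cells by 1.60 over satellite cells (SE 0.13, adjusted p = 0.0105) and by 1.30 over CD31_CD45 cells (SE 0.13, adjusted p = 0.00952), the second of which lost its call with the scanner set as a block (1.62). Of 9 platelet markers 1, Pf4, was called between PDGFRa+ and CD31_CD45 cells, where 10.1% of all genes were called. Pf4 was brighter in CD31_CD45 cells. It read 1353.2 and 1763.1 in aged and young CD31_CD45 cells and made up most of the list's sum there (1544.6 in aged and 1902.2 in young cells), whereas Itga2b was brighter in PDGFRa+ cells. The part of platelets in the Thbs1 signal was not tested.

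Tnmd, the tendon cell glycoprotein, read 1455.2 and 1646.3 in aged and young PDGFRa+ cells, 297.5 and 122.6 in aged and young satellite cells and 29.9 and 28.9 in aged and young CD31_CD45 cells. Tnmd rose by 2.68 in PDGFRa+ over satellite cells (SE 0.37, adjusted p = 0.0231), by 4.57 over CD31_CD45 cells (SE 0.37, adjusted p = 0.00679), and by 1.89 in satellite over CD31_CD45 cells (SE 0.37, adjusted p = 0.0341). Mkx, the homeobox regulator of tendon collagen genes, read 74.4 and 107.4 in aged and young PDGFRa+ cells, 63.1 and 28.2 in aged and young satellite cells and 4.5 and 4.4 in aged and young CD31_CD45 cells. The aged satellite array lay near the aged PDGFRa+ array. Mkx rose by 1.68 in PDGFRa+ over CD31_CD45 cells (SE 0.25, adjusted p = 0.0215), whereas 0.66 over satellite cells (95% interval -0.07 to 1.39, adjusted p = 0.16) and 1.02 in satellite over CD31_CD45 cells (adjusted p = 0.0541) did not pass.

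Scx, the early regulator of tendon progenitors, had another order. It read 277.3 and 260.4 in aged and young PDGFRa+ cells, 253.8 and 148.1 in aged and young satellite cells and 293.9 and 452.1 in aged and young CD31_CD45 cells. Both CD31_CD45 arrays were the brightest, but no comparison passed. The log2 difference was 0.34 between PDGFRa+ and satellite cells (95% interval -0.65 to 1.33, adjusted p = 0.576), -0.43 between PDGFRa+ and CD31_CD45 cells (-1.42 to 0.56, adjusted p = 0.442) and -0.77 between satellite and CD31_CD45 cells (-1.76 to 0.22, adjusted p = 0.18). The first sign turned to -0.12 with the local background and -0.11 without the young satellite array, and the second to 0.46 with the scanner set as a block and 0.059 without the young CD31_CD45 array. Scx lies inside Bop1, a ribosome biogenesis gene. Bop1 had its own probe, which read 97.7 and 75.3 in aged and young PDGFRa+ cells, 176.5 and 172.5 in aged and young satellite cells and 76.8 and 81.5 in aged and young CD31_CD45 cells. Bop1 was brightest in satellite cells. The strand of the probes is not given, and the part of Bop1 in the Scx signal was not tested.

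Between satellite and CD31_CD45 cells 3 of 8 members rose (Thbs4, Thbs2 and Tnmd) and none fell, where 5.12% of all genes rose, 6.57% fell and 11.7% were called either way. The counts rested on few arrays. Without the aged or without the young PDGFRa+ array, 0 of 8 members and 0 of all genes were called by limma between PDGFRa+ and satellite cells. At an unadjusted p under 0.05, 6 members and 5422 genes passed without the aged array, and 4 members and 5030 genes without the young one. Without either CD31_CD45 array 3 members were called. Against CD31_CD45 cells the 7 became 3 without the aged PDGFRa+ array, 2 without the young one and 3 without the aged CD31_CD45 array. The 3 calls between satellite and CD31_CD45 cells became 1 without any single PDGFRa+ or CD31_CD45 array and 5 without the young satellite array. The PDGFRa+ and CD31_CD45 arrays also lie in different scanner sets, and with the set as a block, which rests on the satellite pair alone, 5 of the 7 calls between them were kept and those of Comp and Thbs1 were lost. With the local background of each spot 1, 1 and 0 members were called in the 3 comparisons. The sign of the 16 called differences was the same in all 256 refits (16 alternatives each), of which 198 kept the call.

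The 7 members other than Scx had like profiles over the arrays. Pairwise Pearson r of their log2 values over the 6 arrays, which share the 3 sorts and 1 processing, lay between 0.674 (Thbs1 and Mkx) and 0.991 (Thbs4 and Tnmd). Scx had r between -0.413 and 0.196 with the others. By root mean square distance of centred log2 values, the non-member gene nearest to Thbs4 was Cilp, a matrix protein of cartilage (distance 0.61, r = 0.981), and the nearest to Tnmd was Itgbl1, an integrin beta-like protein (0.22, r = 0.994). The complement protease gene C1ra was nearest to Comp (0.30, r = 0.991). Srpx2 was nearest to Thbs2 (0.19, r = 0.995), Fstl1, a secreted follistatin-like protein, to Thbs3 (0.11, r = 0.998), and Rasl11b to Thbs1 (0.09, r = 0.998). The nearest to Mkx was Itgav, the integrin alpha V subunit (0.10, r = 0.991), and to Scx Map7d1 (0.10, r = 0.988). These are descriptions over 6 arrays, dominated by the 3 populations.

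Age was examined in the same model as a difference shared by the 3 populations, and then pair by pair. No member and none of the 18372 genes passed the shared test in limma after adjustment (0% called), while 2026 genes and 0 members had an unadjusted p under 0.05. All 8 values were above 0, from 0.13 (Mkx) to 0.98 (Comp, SE 0.48, adjusted p = 0.558), with a median of 0.32 against -0.01 over all genes. The value of Thbs4 was 0.82 (SE 0.51, adjusted p = 0.647). With the scanner set as a block, and also without either satellite array, Mkx was at -0.12, Scx at -0.16 and Tnmd at -0.054, and Thbs3 was at -0.20 with the local background.

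Within a population 1 aged array stands against 1 young array, and these differences have no replicate check and no p. In satellite cells all 8 members were brighter on the aged array. Thbs4, Comp and Tnmd were at least 2-fold higher there, 3 of 8 members, where 1.13% of 18024 genes above background were at least 2-fold higher, 0.0999% at least 2-fold lower and 1.23% either. Comp and Thbs4 differed by 2.13 each and ranked 19th and 20th among all genes, Tnmd by 1.15 and Thbs2 by 0.88. Scx (0.73), Thbs3 (0.70), Mkx (0.65) and Thbs1 (0.51) stayed under 2-fold on this scale. The median of the 8 was 0.81, against -0.01 over all genes. In deposited intensity units, without the offset, the aged satellite array read 7.03 times the young one for Comp, 4.62 times for Thbs4 and 3.41 times for Thbs1. The ratio was 2.43 for Tnmd, 2.24 for Mkx, 2.11 for Thbs3, 1.89 for Thbs2 and 1.71 for Scx. With the authors' value table on a log2(value + 1) scale, 6 of 8 members passed 2-fold. Over all genes 1657 did so on that scale, against 221 on the main one. With the local background Thbs4 stood at 3.57 and Comp at 1.57, while Thbs1 was at 0.05, Thbs3 at -0.13 and Thbs2 at -0.42.

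In PDGFRa+ cells 0 of 8 members were at least 2-fold different (0.425% of 17876 genes were, 0.263% higher and 0.162% lower). Comp was at 0.86, Thbs2 at 0.63, Thbs4 at 0.38, Thbs1 at 0.32 and Scx at 0.20, while Thbs3 was at -0.03, Tnmd at -0.10 and Mkx at -0.24. With the local background Tnmd stood at 0.83, Mkx at 0.22 and Thbs4 at -0.10, so these signs turned. In CD31_CD45 cells again 0 of 8 were (0.58% of 18090 genes were, 0.514% higher and 0.0663% lower). There Scx was at -0.52, or -0.0092 with the local background, and the other 7 lay between -0.06 and 0.06.

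**Figure D2:**
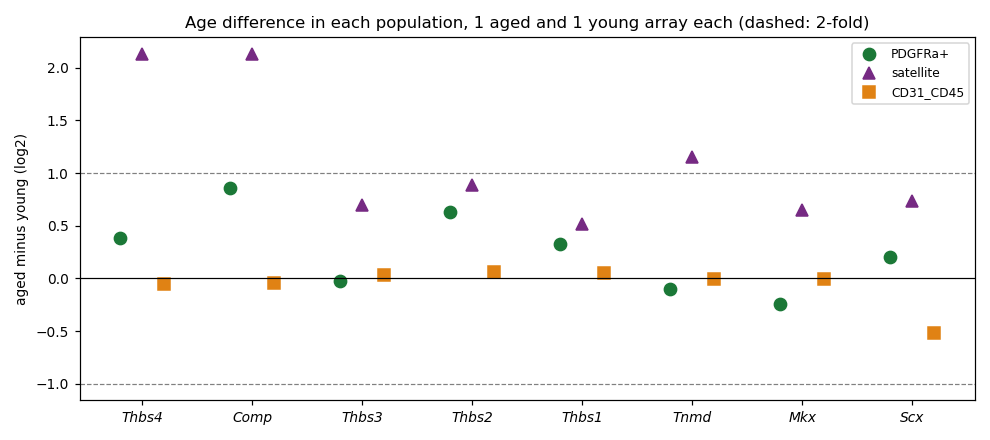
Aged minus young log2 difference of each member within each population, 1 aged against 1 young array and so without error bars. All 8 satellite points lie above 0, with Comp and Thbs4 at 2.13, whereas 7 of the 8 CD31_CD45 points lie between -0.06 and 0.06 and Scx at -0.52.

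The file headers give the scanner gains of each array, and by their slopes the arrays fall into 2 sets. Both PDGFRa+ arrays lie in 1 set and both CD31_CD45 arrays in the other, whereas the aged and young satellite arrays lie in different sets. In the satellite pair, age and scanner set cannot be told apart. Whether the satellite pair differs from the other pairs was tested with an interaction term, chosen after seeing the data, that leaves 1 residual degree of freedom. In limma it called 0 of 18372 genes, and 1496 (8.14%) had an unadjusted p under 0.05. Among the members the unadjusted p was 0.0018 for Tnmd, 0.0051 for Thbs3, 0.0065 for Thbs4, 0.020 for Mkx and 0.048 for Comp. For Scx (0.12), Thbs1 (0.15) and Thbs2 (0.20) it was above 0.05. The satellite age difference exceeded the mean of the other pairs by 1.97 for Thbs4 (SE 0.25, adjusted p = 0.553), by 1.72 for Comp (SE 0.49, adjusted p = 0.606) and by 1.20 for Tnmd (SE 0.09, adjusted p = 0.553). Scx stood at 0.89, Mkx at 0.77, Thbs3 at 0.70, Thbs2 at 0.54 and Thbs1 at 0.33, and none passed.

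Markers of other cells moved in the satellite pair, and some of them also in the other pairs. Of all genes above background 1.13% were at least 2-fold higher on the aged satellite array and 0.263% on the aged PDGFRa+ array. Hematopoietic markers were higher in aged satellite cells for 12 of 12 and at least 2-fold for 1, with a median of 0.09 (summed 1121.3 in aged and 257.4 in young). That 1 was Lyz2 (lysozyme), at 965.3 in aged and 147.3 in young satellite cells. Endothelial markers were higher for 9 of 12, none at 2-fold (917.1 in aged and 751.2 in young). Of 11 mesenchymal markers 10 were higher in aged satellite cells, 6 at least 2-fold, with a summed intensity of 9631 in aged and 6166.6 in young satellite cells. Pdgfra read 60.6 in aged and 7.6 in young satellite cells. Of 10 myofibre markers 10 were higher, 5 at least 2-fold (summed 5053.3 in aged and 2747.2 in young), and of 8 pericyte and smooth muscle markers 8 were higher, 4 at least 2-fold (8449.4 in aged and 4823.8 in young). Satellite markers were lower for 9 of 11 (16840.2 in aged and 22867.7 in young), though Pax7 was higher. Chondrocyte markers summed to 55.8 in aged and 53.6 in young satellite cells, with Acan at or below background. In the PDGFRa+ pair 8 of 12 hematopoietic markers were higher on the aged array, 1 at least 2-fold (summed 2105.8 in aged and 320.5 in young). Pericyte and smooth muscle sums were also higher in aged PDGFRa+ cells (1127.3 against 671) and in aged CD31_CD45 cells (14018.8 against 11394.1). Mesenchymal and myofibre sums were lower on the aged array in both of these populations. The part of cells of other types in the Thbs4 and Comp signals was not tested.

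A share sets the satellite signal of a gene against the PDGFRa+ signal of the same probe at the same age. It was 21.4% in aged and 5.61% in young cells for Thbs4, 13.5% in aged and 3.25% in young cells for Comp, and 20.4% in aged and 7.45% in young cells for Tnmd. For Thbs2 it was 31.3% in aged and 24.2% in young cells, for Thbs1 19.6% in aged and 6.91% in young cells, and for Thbs3 12.4% in aged and 5.27% in young cells. Scx (91.5% in aged and 56.9% in young cells) and Mkx (84.8% in aged and 26.3% in young cells) had the highest shares. The median of the 8 members was 20.9% in aged and 7.18% in young cells. Over 17 tendon matrix genes it was 22.0% in aged and 3.94% in young cells. Over 11 mesenchymal markers it was 4.85% in aged and 2.02% in young cells, with Pdgfra itself at 1.46% in aged and 0.133% in young cells. Aged shares ran from 12.4% (Thbs3) to 91.5% (Scx) among the members. Among the mesenchymal markers they ran from 0.632% to 35.5%, and 4 of 11 were over 10%. Among the tendon matrix genes they ran from 5.64% (Prg4) to 302% (Col22a1), and 13 of 17 were over 10%. That list holds dim genes too, such as Cilp2, at 3.7 in aged satellite and 4.9 in aged PDGFRa+ cells (75.5%). The part of PDGFRa+ cells in the satellite signal was not tested. Scanner set and age coincide in these shares too.

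**Figure D3:**
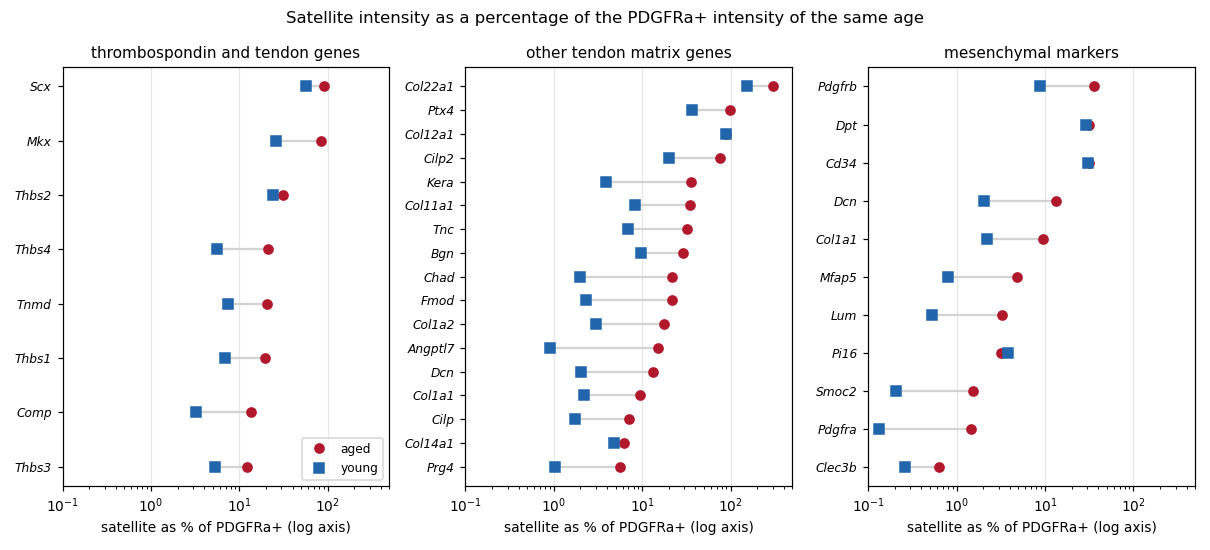
Satellite intensity as a percentage of PDGFRa+ intensity (log axis) for the same probe at the same age, 1 point per gene and age, for the 8 members, 17 tendon matrix genes and 11 mesenchymal markers. The aged medians, which are not drawn, are 20.9%, 22.0% and 4.85%, and the young medians 7.18%, 3.94% and 2.02%.

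Among other tendon matrix genes, many were also brighter in PDGFRa+ cells. Of 17 genes of the list, 11 rose and none fell in PDGFRa+ over satellite cells (4.09% and 3.2% of all genes), with a median of 3.03. Prg4 (lubricin, the joint and tendon lubricant) rose by 4.79 (SE 0.46, adjusted p = 0.013), Cilp by 4.69 (SE 0.59, adjusted p = 0.0194), and Dcn (decorin, a regulator of collagen fibrils) by 4.39 (SE 0.75, adjusted p = 0.0333). Over CD31_CD45 cells 13 rose and none fell (4.7% and 5.4% of all genes), with a median of 3.96, among them Cilp by 7.12 and Dcn by 6.31. Between satellite and CD31_CD45 cells 0 of 17 passed in limma (11.7% of all genes did), and 6 of 17 had an unadjusted p under 0.05. In the satellite age pair 10 of 17 were at least 2-fold higher on the aged array and none lower (1.13% and 0.0999% of genes above background), with a median of 1.25. Dcn was at 2.34 and Prg4 at 2.01. In the PDGFRa+ pair none were at least 2-fold higher and 3 at least 2-fold lower (0.263% and 0.162% of genes above background), with a median of -0.47. These 3 were the keratan sulfate proteoglycan Kera (-2.86), the cartilage leucine-rich protein Chad (-1.44) and Col1a2, a chain of type I collagen (-1.03), whereas Comp was at 0.86 and Thbs4 at 0.38 in the same pair. In the CD31_CD45 pair 1 of 17, the proteoglycan biglycan (Bgn, 1.07), was at least 2-fold higher and none lower, with Prg4 at 0.91 and a median of -0.06. Of genes above background 0.514% were higher there and 0.0663% lower. Dcn and Col1a1 are also on the mesenchymal list.

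Regulators and receptors were called in both directions against satellite cells. Of 23 tendon regulators 2 rose in PDGFRa+ over satellite cells and 1 fell, where 4.09% of all genes rose and 3.2% fell. The TGF-beta receptor Tgfbr2, needed for tendon progenitors, rose by 2.54 (SE 0.14, adjusted p = 0.00704), the calcium-responsive factor Nfatc4 rose by 1.16, and the zinc finger factor Egr2 fell by 1.85 (SE 0.22, adjusted p = 0.0179). Over CD31_CD45 cells 5 rose, among them Tgfb3 by 1.80, and none fell, where 4.7% of all genes rose and 5.4% fell. In the age pairs none reached 2-fold. The values farthest from 0 were Tgfb2 (-0.64) and Tcf4 (-0.45) in PDGFRa+, Eya2 (0.95) and Egr2 (-0.90) in satellite, and Egr1 (-0.81) and Egr2 (-0.70) in CD31_CD45 cells. Egr1 is also on a list of genes that respond to cell dissociation. Of its 13 genes 11 were lower in PDGFRa+ than in satellite cells, 1 of them called, and 2 were higher. On the aged array 9 were lower in PDGFRa+, 10 in satellite and 12 in CD31_CD45 cells. The part of dissociation in the Egr1 and Egr2 values was not tested. Of 16 thrombospondin receptors and partners 3 rose and 3 fell in PDGFRa+ over satellite cells (4.09% and 3.2% of all genes). The endocytic receptor Lrp1, which clears thrombospondins, rose by 2.71 (SE 0.11, adjusted p = 0.00505), and Itga7, the laminin receptor subunit of muscle, fell by 2.29 (SE 0.18, adjusted p = 0.0103). Cd36, the scavenger receptor of Thbs1 and Thbs2, fell by 1.78 (SE 0.20, adjusted p = 0.0167). Over CD31_CD45 cells 3 rose and 2 fell (4.7% and 5.4% of all genes), with Lrp1 at 4.06 (SE 0.11, adjusted p = 0.00122) and Cd36 at -7.24 (SE 0.20, adjusted p = 0.0013). Cd36 was thus brightest in CD31_CD45 cells. In the satellite age pair 1 of the 16, the integrin subunit Itgb5 (1.00), was at least 2-fold higher on the aged array (1.13% of genes above background), with Cd36 next at 0.73. In the other pairs none reached 2-fold, with Cd36 (0.73) and Lrp1 (0.62) farthest from 0 in PDGFRa+ and Cacna2d1 (0.42) and Itga6 (-0.41) in CD31_CD45 cells.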

How the data were processed

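Each of the 6 arrays has its own scanner file and 1 column in a common value table. A scanner file holds, per the file headers, the median pixel intensity of every spot at 635 nm, merged from 3 gains. The authors' deposited values are linear intensity with a median of 25 per array. They were matched to within 0.0935 by subtracting the 5% trimmed mean of 2736 blank spots from the spot median and rescaling. The table is empty at or below that mean plus 2 trimmed SD or at a bad-spot mark, apart from 1 or 2 probes on 3 of the arrays. A genome build for the array is not given in the sources used here.

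Spot medians were corrected here with normexp in limma 3.58.1 (R 4.3.3), the blank spots as background and an offset of 50, then taken to log2 and quantile normalised. Control and blank spots were dropped. Gene symbols were taken from the platform annotation, updated by Entrez identifier (20556 of 20690 named probes matched), and 2783 unnamed probes were not used. Genes above background on at least 2 of 6 arrays were tested (18372). The model had population and age as terms (lmFit and eBayes, prior df 1.50, median residual SD 0.06), tests were two-sided, and scripts were tested on simulated data. Nothing says whether arrays hold separate animals beyond the pooled sorts.

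The members, gene lists, alternatives and naming rule were chosen with earlier results of these data known. Named are all members, the nearest non-member genes by profile, up to 4 called genes per list and comparison with the largest differences, and the 2 largest of each pathway list in each age pair. Bop1 was added because it overlaps Scx. Alternatives were the value table with log2(value + 1), the local background (it follows its own spot, correlation of logs 0.961 to 0.980), no background correction, an offset of 10, median scaling, other filters, the mean of all probes, eBayes with trend, the scanner set as a block and leaving out each array.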

Additional observations from a re-analysis of the deposited data

Results flagged for a closer look

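The age difference of Scx did not have the same sign in all populations, where 1 aged array is set against 1 young array. On the log2 scale, aged minus young was 0.20 in PDGFRa+ cells and 0.73 in satellite cells, against -0.52 in CD31_CD45 cells. With the local background of each spot the CD31_CD45 value was -0.0092. Signs were also mixed for Thbs3, Thbs4, Comp, Tnmd and Mkx, whose lowest value was -0.24 (Mkx in PDGFRa+ cells). Only Thbs1 and Thbs2 were above 0 in all populations. The difference between populations was not tested beyond the interaction term of the satellite pair, which did not pass for Scx (0.89, SE 0.39, adjusted p = 0.725).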

How the results depend on the processing

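No paired analysis was possible because the labels give no replicate numbers and there is 1 array per population and age. Members called between PDGFRa+ and satellite cells (6) became 1 with the local background and ranged from 0 to 7 when 1 array was left out. Between PDGFRa+ and CD31_CD45 cells (7) they became 1 with the local background, 5 with the scanner set as a block, and ranged from 2 to 7 when 1 array was left out. Between satellite and CD31_CD45 cells (3) they became 5 with the value table, 0 with the local background, 5 with the offset of 10, 5 with the scanner set as a block, and ranged from 1 to 5 when 1 array was left out. Members at least 2-fold apart by age became 1 in PDGFRa+ cells with the local background (Thbs2 at 1.19) and 6 in satellite cells with the value table.

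Among tested differences, signs turned only in uncalled values. For the shared age difference these were Mkx (-0.12), Scx (-0.16) and Tnmd (-0.054) with the scanner set as a block, and Thbs3 (-0.20) with the local background. With 1 array left out, this difference ranged from -0.12 to 0.32 for Mkx, from -0.16 to 0.47 for Scx and from -0.054 to 0.57 for Tnmd, the lowest being without either satellite array. For Scx, PDGFRa+ minus CD31_CD45 was 0.46 with the scanner set as a block and ranged from -0.92 to 0.059 with 1 array left out, and PDGFRa+ minus satellite was -0.12 with the local background and ranged from -0.11 to 0.78. The cause was not tested. Of the 58 lost calls among 256 refits, 42 came with an array left out, 14 with the local background and 2 with the scanner set as a block.

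Over all genes, 1339 calls between PDGFRa+ and satellite cells became 2981 with the value table, 68 with the local background, 2213 with the offset of 10 and 0 without either PDGFRa+ array. The 1857 between PDGFRa+ and CD31_CD45 cells became 3790, 289 and 2945 under the same alternatives, 835 with the scanner set as a block and 1131 without the young PDGFRa+ array. The 2147 between satellite and CD31_CD45 cells became 4429, 342 and 3382. Genes at least 2-fold apart by age were 76 in PDGFRa+ cells (1269, 1084 and 197), 221 in satellite cells (1657, 1266 and 478) and 105 in CD31_CD45 cells (836, 927 and 217). Precision is limited by having 6 arrays and, for the dim Mkx and Thbs1, by the signal over background.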

Other observations

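Further gene lists bear on the same families. Of 20 matricellular genes, secreted proteins that act on cells from the matrix, 10 rose and none fell in PDGFRa+ over satellite cells, and 9 rose and none fell over CD31_CD45 cells. Of all genes 4.09% rose and 3.2% fell over satellite cells, and 4.7% rose and 5.4% fell over CD31_CD45 cells. Smoc2, a calcium-binding relative of osteonectin, rose by 5.80 over satellite cells (SE 0.36, adjusted p = 0.00757) and by 6.14 over CD31_CD45 cells. Ccn3 rose by 5.48 over satellite cells (SE 0.49, adjusted p = 0.0121). In satellite over CD31_CD45 cells Postn (periostin) rose by 1.84 and Matn2 by 1.72, and Sparcl1 fell by 3.90. In the satellite age pair 6 of 20 were at least 2-fold higher on the aged array and none lower (1.13% and 0.0999% of genes above background), with Ccn3 at 1.66 and Ccn2 at 1.45. The values farthest from 0 were Ccn1 (0.81) and Ccn2 (0.70) in the PDGFRa+ pair and Ccn2 (0.23) and Ccn1 (-0.21) in the CD31_CD45 pair.

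Of 19 genes outside the family that carry the properdin-like repeat, 6 rose and 1 fell in PDGFRa+ over satellite cells (4.09% and 3.2% of all genes). Spon2 (a spondin) rose by 3.55 (SE 0.32, adjusted p = 0.0122), Sema5a (a semaphorin) by 2.20 and Rspo3 (an R-spondin, which raises Wnt signalling) by 2.06, while Thsd4 fell by 2.27 (SE 0.14, adjusted p = 0.00745). Over CD31_CD45 cells 5 rose and 3 fell (4.7% and 5.4% of all genes), where Cfp, properdin itself, fell by 3.08 and Unc5b, a netrin receptor of endothelial cells, fell by 1.70. In the age pairs the values farthest from 0 were Rspo3 (-0.77) and Spon2 (-0.69) in PDGFRa+, Unc5b (0.43) and Thsd7a (0.43) in satellite, and Rspo1 (0.73) and Unc5b (0.48) in CD31_CD45 cells.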
